A study of Homo sapiens with 20 samples.

Results

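The NOTCH receptors NOTCH1, NOTCH2, NOTCH3 and NOTCH4 were followed in human lines of T-ALL, T-cell acute lymphoblastic leukemia, given a gamma-secretase inhibitor. Probe sets were taken as members where the annotation of the Affymetrix platform names 1 of these receptors and no other gene. That rule found 8 of 22215 non-control probe sets: 1 for NOTCH1, 4 for NOTCH2, 2 for NOTCH3 and 1 for NOTCH4. Of these 8, 6 lay above the 40th percentile of mean signal over all arrays (a signal of 32.5), and the second NOTCH3 probe set and the NOTCH4 probe set lay under it. The table names 11963 genes in all, and the rule used no measured value. The receptors themselves were chosen with earlier results of these data known.

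Profiled were RPMI8402, CUTLL1, PF382, HPB-ALL, CCRF-CEM, KOPTK1, ALL-SIL, P12-ICHIKAWA, DND41 and MOLT3. Per the series' description all 10 carry activating NOTCH1 mutations, so the vehicle controls carry them too. Each line was profiled once after vehicle (DMSO) and once after CompE, an inhibitor of gamma-secretase, at 72 h, which gave 20 arrays. The dose of 100 nM is stated for the series, and the treatment text of some CompE samples does not repeat it. The labels of P12-ICHIKAWA, MOLT3 and CCRF-CEM give one medium for the CompE sample and, for the DMSO sample, a medium with the same name as the line RPMI8402; which is right is not settled. Each line is a single established culture model, and the labels do not say whether its pair of arrays came from separate cultures, so the spread in every test is the spread between lines.

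NOTCH receptors are single-pass membrane proteins. Ligands of the Delta and Jagged families on a neighbouring cell start a first cut by an ADAM protease, after which gamma-secretase cuts within the membrane and frees the intracellular part, which joins RBPJ and Mastermind proteins on DNA and switches on target genes. NOTCH1 drives commitment of thymic progenitors to the T lineage and is the receptor most often mutated in T-ALL. NOTCH3 is also made in immature thymocytes and is a known target gene of NOTCH signalling, NOTCH2 is best known for its role in marginal zone B cells, and NOTCH4 for its expression in endothelium. The inhibitor acts on the cut of receptor proteins, whereas the arrays measure receptor messenger RNA, so they show the RNA level of each receptor and not how much of it was cut.

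The upstream sequences of NOTCH3, the receptor whose RNA fell, and of NOTCH1, the mutated receptor whose RNA did not pass the test, are given to show what lies before each start site. Each is the 250 bases before the annotated start in RefSeq (GRCh38.p14), on the minus strand and written 5′ to 3′. Capitals mark GC boxes, the letters GGGCGG or, on the other strand, CCGCCC. The NOTCH3 window is chr19:15200996-15201245 and the NOTCH1 window is chr9:136546049-136546298.
NOTCH3: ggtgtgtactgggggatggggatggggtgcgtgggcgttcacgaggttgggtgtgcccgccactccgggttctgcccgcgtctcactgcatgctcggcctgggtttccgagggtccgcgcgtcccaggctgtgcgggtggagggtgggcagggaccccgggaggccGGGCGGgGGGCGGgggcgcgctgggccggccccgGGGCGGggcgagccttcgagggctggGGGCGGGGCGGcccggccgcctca
NOTCH1: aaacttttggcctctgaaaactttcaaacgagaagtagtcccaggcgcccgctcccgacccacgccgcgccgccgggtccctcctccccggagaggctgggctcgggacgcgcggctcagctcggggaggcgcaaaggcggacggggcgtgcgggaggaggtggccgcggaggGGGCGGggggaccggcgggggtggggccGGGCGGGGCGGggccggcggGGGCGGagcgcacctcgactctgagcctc
The NOTCH3 window held 5 GC boxes at a GC content of 78%, and the NOTCH1 window held 4 at 76%; neighbouring boxes could share a base. The letters TGGGAA, the core of the RBPJ motif, or TTCCCA on the other strand, were in neither window, nor in those of NOTCH2 and NOTCH4. Over 35116 promoter windows of the same length in the table, 20.8% held the RBPJ core and 42.6% held a GC box, and the median GC content was 58%. A match or its absence in 250 bases is a description of letters and says nothing of where a factor binds.

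Signals had been scaled by MAS5 to a common array mean, and changes were computed as the difference of log2(signal + 16) between the CompE and the DMSO array of a line. Array medians ran from 54.8 to 74.8. The 10th percentile of signal was higher after CompE in 7 lines, most in DND41 (3.67 against 8.35, a log2 change of 1.19), PF382, MOLT3 and HPB-ALL, and KOPTK1 had the highest ratio of the 3′ to the 5′ ACTB control, 3.32 after DMSO and 9.76 after CompE. Markers of the labelled T lineage were present: all 17 probe sets of 11 measured markers had a mean above the 40th percentile, and CD3D signals lay between 4461 and 9676 over all arrays. Single arrays were below that percentile for CD2 (lowest signal 2.61), CD5 (11.2) and CD7 (30.2).

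Among the 8 receptor probe sets, 1 passed the paired limma test at an adjusted p under 0.05, and it was lower after CompE. Over all probe sets 0.882% were called lower and 0.828% higher, 1.71% in all. The called probe set was 203238_s_at of NOTCH3, which fell by 1.34 ± 0.23 (SE) on the log2 scale over 10 lines. The probe sets of NOTCH1, NOTCH2 and NOTCH4 did not pass.

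NOTCH3 is a receptor whose intracellular part activates transcription more weakly than that of NOTCH1. Its probe set 203238_s_at read 337 after DMSO and 70.5 after CompE in ALL-SIL, 1514 and 299 in HPB-ALL, 565 and 131 in PF382, 1226 and 319.5 in DND41, 529 and 91.5 in MOLT3, and 465 and 141 in KOPTK1. In these 6 lines the log2 change lay below -1, from -2.34 in MOLT3 to -1.62 in KOPTK1. Signals were 249 and 129 in RPMI8402, a change of -0.87, and 170.1 and 112 in P12-ICHIKAWA, a change of -0.54. CUTLL1, which carries a translocation joining the T-cell receptor beta locus to NOTCH1, had the highest NOTCH3 signal of the 10 lines, 2721 after DMSO and 2516 after CompE, a change of -0.11. CCRF-CEM had the lowest, 21.1 and 27.4, both below the 40th percentile of the platform, with a change of 0.23.

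NOTCH3 was lower after CompE in 9 of 10 lines, and the ranges of both groups overlapped because the lines differed so widely. Its mean signal was 780 ± 826 (SD, n = 10) after DMSO and 384 ± 755 after CompE. The change was -1.34 ± 0.23 (SE), with a 95% confidence interval from -1.84 to -0.85, or 2.54-fold lower on the log2(signal + 16) scale (limma with line as a block, adjusted p = 0.0144). The exact two-sided sign-flip test over the 10 lines gave an unadjusted p of 0.00586, a test that 17.6% of all probe sets passed at 0.05. The share of all probe sets with a lower change than NOTCH3 was taken in each line. In the lines below -1 it was 0.027% in ALL-SIL, 0.0630% in PF382, 0.0855% in HPB-ALL, 0.0990% in MOLT3, 0.306% in DND41 and 0.851% in KOPTK1. In the remaining lines it was 3.26% in RPMI8402, 10.5% in P12-ICHIKAWA, 38.3% in CUTLL1 and 80.7% in CCRF-CEM. The lines below -1 were picked by this same change, so their low shares are a description and not a test. As RNA came from whole cultures, fewer cells with the transcript and less transcript per cell cannot be told apart.

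The NOTCH3 call depended on the fit and on some lines, while its sign did not change in any of the 25 alternative settings. The NOTCH3 change ran opposite to that of the arrays' 10th percentile (r = -0.64, rho = -0.55 over 10 lines, and r = -0.53 without the 2 farthest lines), and with the 10th percentile as a covariate it was -0.92 (adjusted p = 0.324). Adding the ACTB ratio in its place gave -1.27 (adjusted p = 0.0520). Without DND41 it was -1.28 (adjusted p = 0.0531), and across the lines left out in turn it lay between -1.52 and -1.23. Without the 3 lines of differing medium labels it was -1.54 (adjusted p = 0.0250).

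The second NOTCH3 probe set, 203237_s_at, was dim on every array, with signals from 2.88 to 16.9, at the 9.11th percentile of the platform. It read a median of 7.32 after DMSO and 6.66 after CompE, and its change was 0.07 ± 0.10 (SE, limma adjusted p = 0.740). It changed sign between scalings, to -0.003 with the arrays centred on their medians. With signals at or below about the pseudocount of 16 its log2 change is held near 0. It was higher after CompE in 7 of 10 lines. With a pseudocount of 1 its change was 0.18 ± 0.27 (SE, limma adjusted p = 0.770), so it showed no fall there either. At signals this dim it is no second reading of the NOTCH3 fall, in either direction. The changes of the dim probe set ran with the change of the arrays' 10th percentile (r = 0.85 over 10 lines, which share that array-wide quantity), and its part in the value was not tested beyond the covariate fit, where the change was -0.02. A mean over both probe sets put the NOTCH3 change at -0.64 (limma adjusted p = 0.0307).

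**Figure D1:**
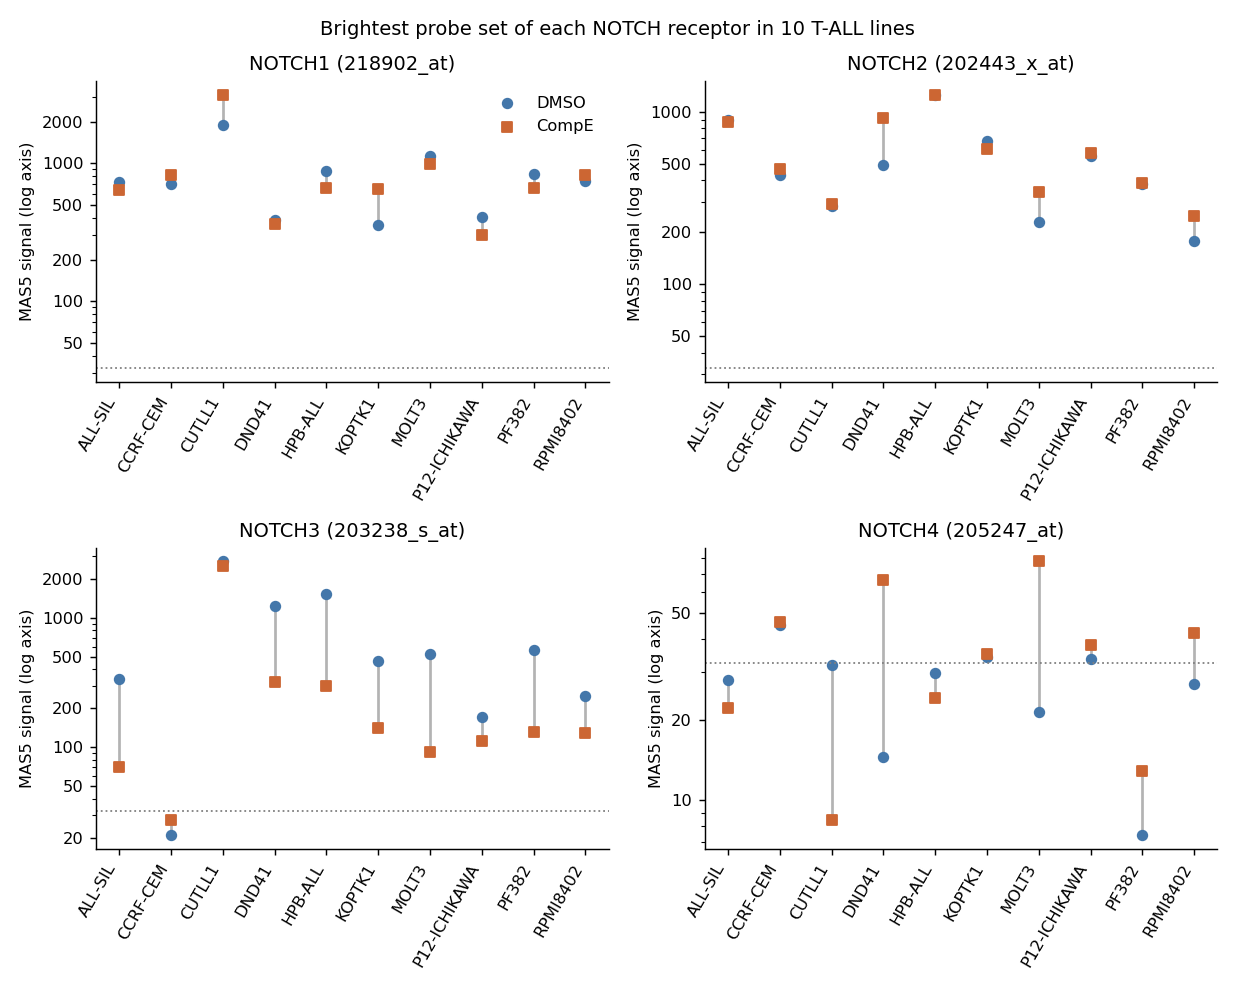
MAS5 signal of the brightest probe set of each receptor, on log axes, in the DMSO array (circles) and the CompE array (squares) of each of the 10 lines; the dotted line marks the 40th percentile of the platform, a signal of 32.5. NOTCH3 is lower after CompE in 9 lines, while its signal in CUTLL1 stays at 2721 and 2516, and NOTCH4 lies around the dotted line.

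NOTCH1 is the receptor that carries the activating mutations in these lines. Its probe set 218902_at read 733 after DMSO and 635 after CompE in ALL-SIL, 1126 and 989.6 in MOLT3, 709 and 817 in CCRF-CEM, 878 and 658 in HPB-ALL, and 389 and 364 in DND41. The signals were 409.9 and 302 in P12-ICHIKAWA, 834 and 658 in PF382, and 739 and 817 in RPMI8402. The changes in these 8 lines stayed between -0.42 and 0.20 on the log2 scale. CUTLL1 stood apart with 1895 and 3134, a change of 0.72, and KOPTK1 had 353 and 648, a change of 0.85.

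NOTCH1 was lower after CompE in 6 lines and higher in 4, and both groups overlapped. Its mean signal was 806 ± 453 (SD, n = 10) after DMSO and 902 ± 810.2 after CompE. The mean change was 0.03 ± 0.12 (SE), with a 95% confidence interval from -0.23 to 0.29 (limma adjusted p = 0.927, exact sign-flip p = 0.842). The sign of so small a mean was not stable: it was -0.06 without KOPTK1, -0.05 without CUTLL1, -0.12 once the ACTB ratio entered the fit and -0.045 with median centring. KOPTK1, which had the highest NOTCH1 change, was also the line with the highest change of the ACTB ratio, 1.56 on the log2 scale.

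NOTCH1 and NOTCH3 thus differed in their change: NOTCH1 minus NOTCH3 was 1.37 (95% confidence interval 0.76 to 1.98), higher in 9 of 10 lines (exact sign-flip permutation test, p = 0.00391, adjusted p = 0.0169 over 13 pairs). The difference passed in all 13 alternatives run for it, at values from 1.18 to 1.64. These changed only the pseudocount or the lines left out. The covariate fits and the omission of both DND41 and MOLT3, where the NOTCH3 call was lost, were not run for differences. NOTCH2 minus NOTCH3, with the brightest probe set of each, was 1.54 (0.79 to 2.29), also in 9 of 10 lines (exact p = 0.00391, adjusted p = 0.0169). NOTCH4 minus NOTCH3 was 1.57 (0.55 to 2.59), higher in 8 of 10 lines (exact p = 0.0117, adjusted p = 0.0254), and no longer passed in 6 of the 10 fits without 1 line (adjusted p up to 0.0508). Since the NOTCH4 probe set lay below the 40th percentile, its part of this value is not a measured change of NOTCH4, and the value is not read as a difference between the receptors. The pairs of different receptors without NOTCH3 did not pass. The interval ran from -0.60 to 0.27 for NOTCH1 minus NOTCH2, which leaves room for a difference either way, and, with the same limit for NOTCH4, from -0.90 to 0.50 for NOTCH1 minus NOTCH4 and from -0.38 to 0.31 for NOTCH2 minus NOTCH4.

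**Figure D2:**
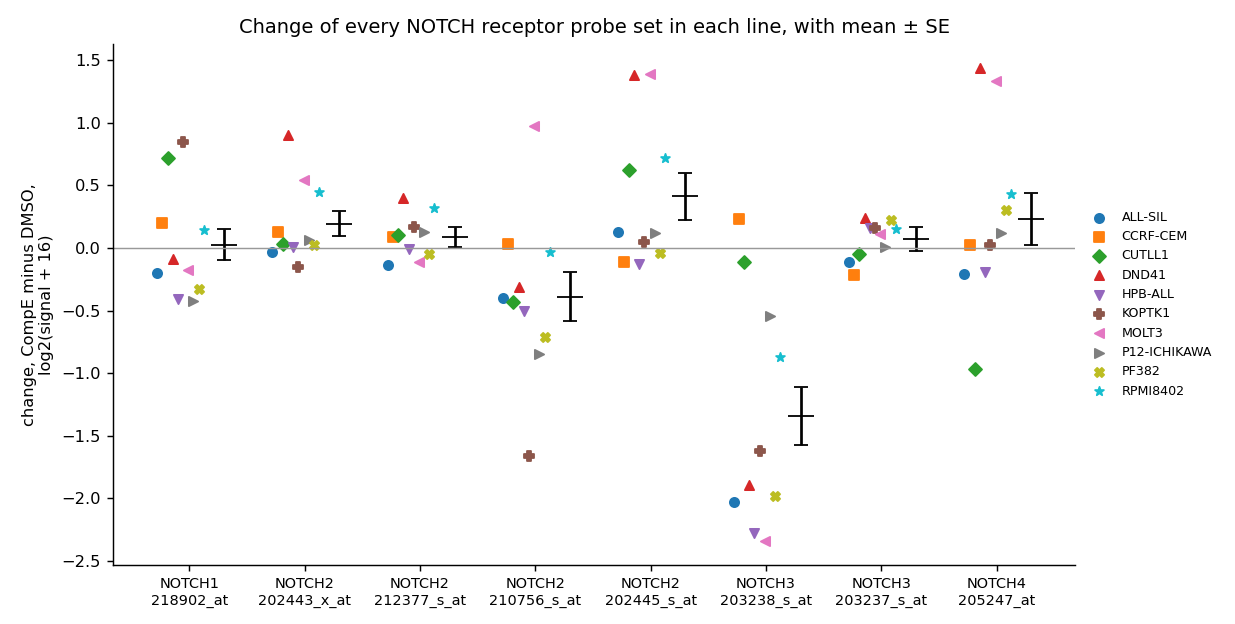
Change in log2(signal + 16), CompE minus DMSO, of each of the 8 receptor probe sets. Each symbol is a line, and the black bar gives the mean over 10 lines with the standard error of the limma fit. NOTCH3 203238_s_at has 6 lines below -1, and DND41 and MOLT3 are the 2 highest lines for NOTCH4 and for NOTCH2 202445_s_at.

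NOTCH2 had 4 probe sets, which lets the same transcript be read several times, although the suffixes _s_at and _x_at mark probe sets that may also bind other transcripts and NOTCH2 has near-identical NOTCH2NL copies in the human genome. Values of NOTCH2 are uncertain to that extent. The 2 brightest probe sets ordered the lines almost alike: their DMSO levels correlated at r = 0.96 (rho = 0.95) over the 10 lines, which share arrays and scaling. HPB-ALL and ALL-SIL were the 2 highest lines on both, and RPMI8402 was the lowest.

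Probe set 202443_x_at of NOTCH2 read 892 after DMSO and 873 after CompE in ALL-SIL, 1249 and 1255 in HPB-ALL, 679 and 612 in KOPTK1, 427 and 468 in CCRF-CEM, and 283 and 289.8 in CUTLL1. It read 555 and 578 in P12-ICHIKAWA and 379 and 384 in PF382. In these 7 lines the change stayed between -0.15 and 0.13. The other 3 lines had larger changes: 0.90 in DND41 (489 to 924), 0.54 in MOLT3 (230.5 to 342) and 0.45 in RPMI8402 (179 to 250.1). Over all lines the change was 0.20 ± 0.10 (SE), with 8 of 10 lines higher, and it did not pass (limma adjusted p = 0.314, exact sign-flip p = 0.0918). It was 0.12 without DND41, 0.064 without DND41 and MOLT3 and 0.12 with median centring. The change ran with that of the arrays' 10th percentile (r = 0.64, rho = 0.42 over 10 lines), and with the latter as a covariate it was 0.051.

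Probe set 212377_s_at of NOTCH2 gave a change of 0.09 ± 0.08 (SE), with 6 of 10 lines higher (limma adjusted p = 0.582). Its signals had a lowest value of 136, a median of 363 and a highest of 922 after DMSO, against 174, 393 and 912 after CompE. DND41 had its highest change too, 0.40, but MOLT3 was at -0.11 here. The change was 0.055 without DND41, 0.046 once the ACTB ratio entered the fit and 0.018 with median centring. Differences between lines made up 98.5% of the total sum of squares of this probe set and treatment 0.335%.

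The 2 dimmer NOTCH2 probe sets went opposite ways. Probe set 210756_s_at had a lowest signal of 36.3, a median of 77.1 and a highest of 298 after DMSO, against 11.1, 62.7 and 206 after CompE, and was lower in 8 of 10 lines. Its change was -0.39 ± 0.20 (SE, limma adjusted p = 0.297), with the lowest value, -1.66, in KOPTK1 (69.8 to 11.1), the line with the highest ACTB 3′ to 5′ ratio, and the highest, 0.97, in MOLT3 (36.3 to 86.7). Without KOPTK1 the change was -0.25, and it was -0.079 once the ACTB ratio entered the fit. Probe set 202445_s_at had a lowest signal of 17.1, a median of 42.8 and a highest of 69.0 after DMSO, against 34.9, 57.4 and 102 after CompE, and was higher in 7 of 10 lines. Its change was 0.41 ± 0.19 (SE, limma adjusted p = 0.247), led by MOLT3 at 1.39 (19.5 to 77.1) and DND41 at 1.38 (29.4 to 102), and was 0.17 without both of these lines and 0.21 with the 10th percentile as a covariate. Neither passed on its own.

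Set against each other within lines, 210756_s_at lay 0.80 below 202445_s_at (95% confidence interval 0.39 to 1.22) in 9 of 10 lines (exact sign-flip permutation test, p = 0.00391, adjusted p = 0.0169). It also lay 0.58 below 202443_x_at (0.19 to 0.98) in 9 of 10 lines (exact p = 0.00781, adjusted p = 0.0203). The other 4 pairs of NOTCH2 probe sets did not pass; 212377_s_at and 210756_s_at differed by 0.48 (-0.05 to 1.004), which passed without MOLT3 (0.65, exact adjusted p = 0.0203). The probe sets of NOTCH2 therefore gave no single direction.

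**Figure D3:**
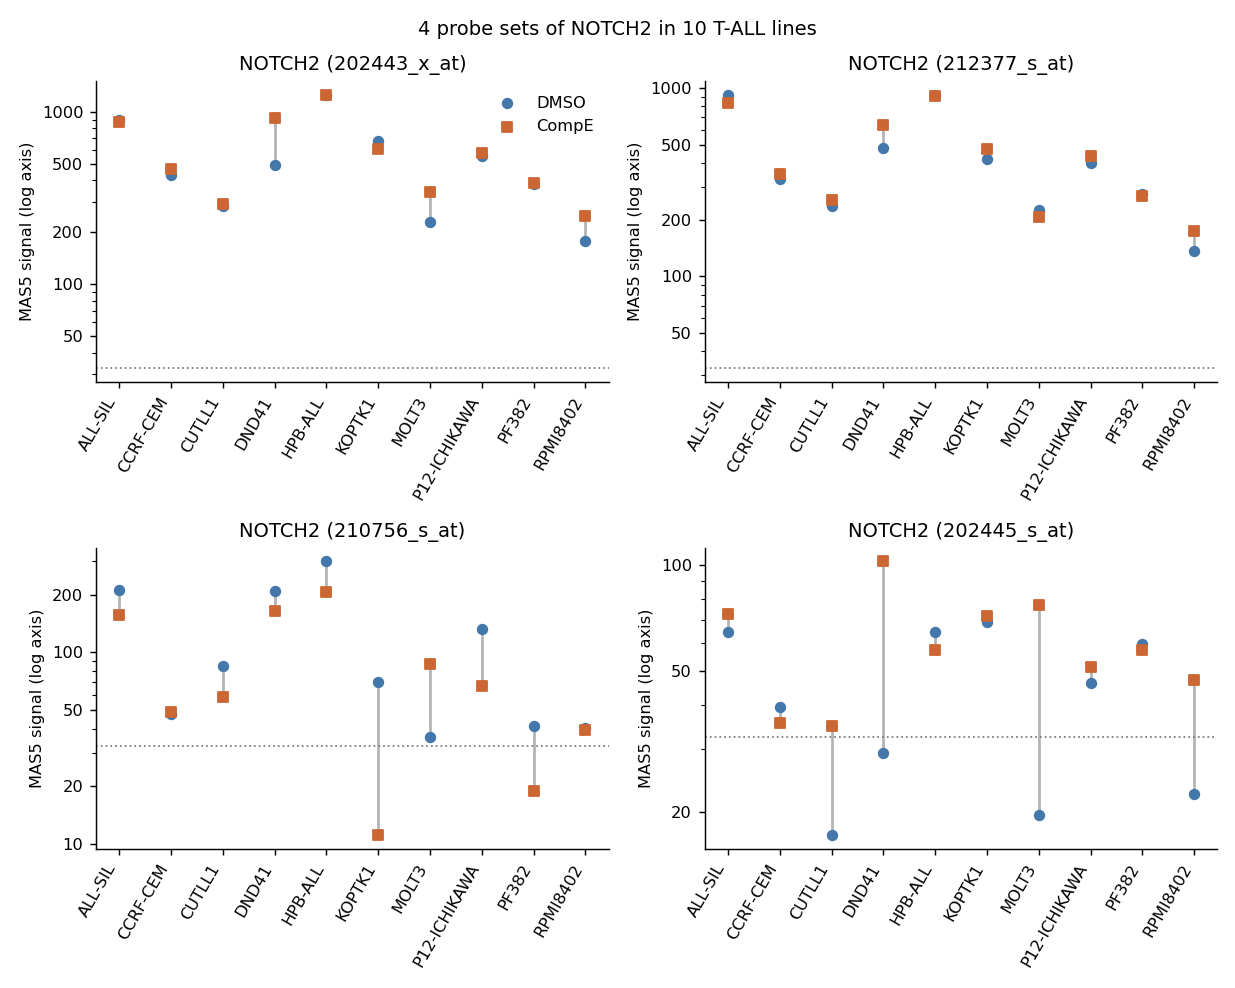
MAS5 signal of the 4 NOTCH2 probe sets, on log axes, in the DMSO array (circles) and the CompE array (squares) of each line; the dotted line marks the signal of 32.5 at the 40th percentile of the platform. The upper 2 panels order the lines almost alike, with changes near 0 in most of them, while 210756_s_at is lower after CompE in 8 lines and 202445_s_at is higher in 7.

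NOTCH4 was dim. Its probe set 205247_at lay at the 38.1th percentile of the platform and read 28.1 after DMSO and 22.2 after CompE in ALL-SIL, 14.5 and 66.4 in DND41, 45.2 and 46.1 in CCRF-CEM, 29.7 and 24.1 in HPB-ALL, and 32.01 and 8.46 in CUTLL1. It read 21.4 and 77.7 in MOLT3, 34.2 and 35.0 in KOPTK1, 7.42 and 12.9 in PF382, 33.7 and 37.9 in P12-ICHIKAWA, and 27.0 and 42.1 in RPMI8402. Log2 changes were above 1 in DND41 (1.44) and MOLT3 (1.33), and the lowest was that of CUTLL1 at -0.97.

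Over all lines the NOTCH4 change was 0.23 ± 0.21 (SE), higher in 7 of 10 lines, and did not pass (limma adjusted p = 0.585, exact sign-flip p = 0.314). Without both DND41 and MOLT3, an alternative chosen after the values were seen, it was -0.06; without DND41 alone it was 0.095 and without MOLT3 alone 0.11. In those lines the arrays' 10th percentile was higher after CompE too, by 1.19 and 0.77 on the log2 scale, and over the 10 lines, each point being 1 pair of arrays, the NOTCH4 change ran with that of the 10th percentile (r = 0.75, rho = 0.76). With the 10th percentile as a covariate the change was -0.14. Endothelial markers, of interest because NOTCH4 is known from endothelium, had summed signals of 132 to 2319 after DMSO and 126 to 2722 after CompE over 6 of 6 measured genes. Of 9 endothelial probe sets, 4 were above the 40th percentile, 3 of PECAM1, which leukocytes also make, with signals up to 2050, and 1 of TEK, with signals up to 73.7. The defining marker VWF did not exceed 12.5 and CDH5 did not exceed 46.1 on any array. None of the 9 passed the limma test.

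The order of lines by receptor level, from the mean of the 2 arrays of a line, was led by CUTLL1 for both NOTCH1 and NOTCH3, in each case with both arrays above both arrays of the next line. For NOTCH1 MOLT3 came next, also apart from the line below it, and RPMI8402, CCRF-CEM, HPB-ALL, PF382, ALL-SIL, KOPTK1, DND41 and P12-ICHIKAWA followed, with no neighbours among them apart beyond their 2 arrays. For NOTCH3 the order below CUTLL1 was HPB-ALL, DND41, PF382, KOPTK1, MOLT3, RPMI8402, ALL-SIL and P12-ICHIKAWA, none apart from its neighbour, and then CCRF-CEM, apart at the bottom. For NOTCH2 202443_x_at it was HPB-ALL, ALL-SIL, DND41, KOPTK1, P12-ICHIKAWA, CCRF-CEM, PF382, CUTLL1, MOLT3 and RPMI8402, with 5 of 9 neighbours apart. For NOTCH4, led by CCRF-CEM and MOLT3 and closed by PF382, no neighbours were apart. CUTLL1, at the top for NOTCH1 and NOTCH3, was among the lowest 3 lines for NOTCH2 202443_x_at.

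The range over lines was widest for NOTCH3 among the brightest probe sets of NOTCH1, NOTCH2 and NOTCH3: after DMSO the highest NOTCH3 signal was 16 times the lowest over the 9 lines above the 40th percentile, with CCRF-CEM below it, against 5.36 times for NOTCH1 and 6.99 times for NOTCH2 202443_x_at over all 10 lines. These ratios are within a probe set, and no test was made of their difference. Differences between lines made up 92.3% of the sum of squares for NOTCH1, 94.2% for NOTCH2 202443_x_at and 77.9% for NOTCH3, where treatment made up 15.3%. For NOTCH4 lines made up 49.9% and treatment 5.11%.

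NOTCH3 and NOTCH1 levels after DMSO correlated weakly over the 10 lines (r = 0.35, rho = 0.50, and r = 0.07 without the 2 lines farthest from the median). The NOTCH3 change and the NOTCH3 level after DMSO gave r = -0.44 and rho = -0.38 over 10 lines, and r = -0.75 without the 2 farthest lines. Both are descriptions, and the second shares the DMSO value on both axes. CUTLL1, with the most NOTCH3, was not among the 6 lines below -1.

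Among 30 probe sets of 15 other measured NOTCH target genes, 4 were called lower and 0 higher, beside 0.882% lower and 0.828% higher over all probe sets. Their median change was -0.06, against 0.07 over all probe sets. The called ones were HES1, a transcriptional repressor and the classical NOTCH target, at -1.71 ± 0.30 (SE, limma adjusted p = 0.0169, lower in 10 of 10 lines), MYC, a growth regulator, at -1.50 ± 0.28 (adjusted p = 0.0215, 9 of 10), CR2, a complement receptor, at -1.95 ± 0.40 (adjusted p = 0.0273, 9 of 10), and SHQ1, an assembly factor of H/ACA ribonucleoproteins, at -0.76 ± 0.14 (adjusted p = 0.0183, 9 of 10). Other probe sets of HES1 read -0.63 (adjusted p = 0.118) and, at signals no higher than 21.1, 0.31. These calls were lost in some of the same settings as the NOTCH3 call: with the 10th percentile as a covariate HES1 had an adjusted p of 0.272, MYC 0.331, CR2 0.423 and SHQ1 0.220. Leaving out 1 line also ended the HES1 call (HPB-ALL, adjusted p = 0.0536), the SHQ1 call (ALL-SIL, 0.0525), the MYC call (ALL-SIL, DND41, HPB-ALL or RPMI8402, up to 0.0638) and the CR2 call (DND41, HPB-ALL, MOLT3, PF382 or RPMI8402, up to 0.0841), with every change still below 0.

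The lines with the lowest NOTCH3 changes were in part other lines than those with the lowest HES1 changes. Both had 6 lines below -1, and 4 lines were shared: HPB-ALL, KOPTK1, MOLT3 and PF382. With 6 of 10 lines in each set, shared lines are to be had by number alone, and the overlap was not tested. In CUTLL1 HES1 went from 737 to 50.2, a change of -3.51, while NOTCH3 stood at -0.11. In CCRF-CEM HES1 went from 1490 to 423, a change of -1.78, while NOTCH3 was near its lowest level on both arrays. The reverse held in ALL-SIL, where NOTCH3 changed by -2.03 and HES1 by -0.28 (726 to 596), and in DND41, where NOTCH3 changed by -1.89 and HES1 by -0.66 (1557 to 981).

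Over the 10 lines the NOTCH3 change correlated with that of HES1 at r = -0.01 (rho = -0.04), with that of MYC at r = 0.42 (rho = 0.24) and with that of CR2 at r = 0.51 (rho = 0.35). Without the 2 lines farthest from the median NOTCH3 change r was 0.50 for HES1, 0.32 for MYC and 0.11 for CR2, so the values for HES1 and CR2 rest on those lines. These points share the arrays of each line, and with 10 lines they are descriptions. CR2, like NOTCH3, stayed high in CUTLL1, at 2191 after DMSO and 1703 after CompE (a change of -0.36), and was at 4 or less in ALL-SIL and CCRF-CEM on every array. MYC and NOTCH3 shared 5 lines below -1, of 7 for MYC and 6 for NOTCH3. CR2 and NOTCH3 also shared 5, of 6 for each. Like the overlap with HES1, these counts were not tested.

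**Figure D4:**
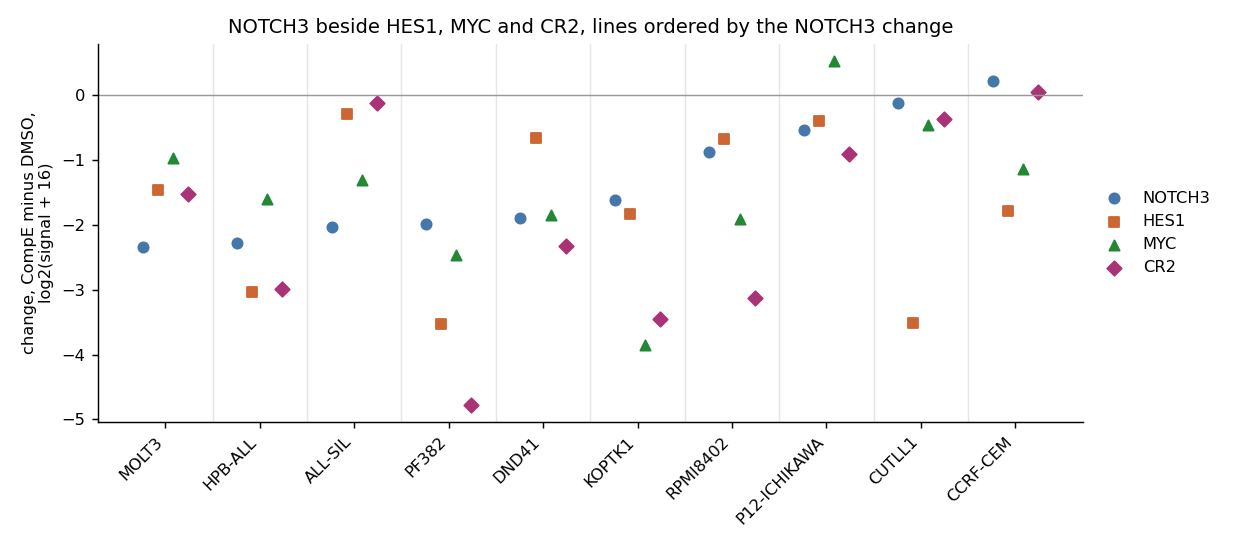
Change in log2(signal + 16), CompE minus DMSO, of NOTCH3 203238_s_at, HES1, MYC and CR2 in each line, with lines ordered by the NOTCH3 change. CUTLL1 has a HES1 change of -3.51 beside a NOTCH3 change of -0.11, and ALL-SIL has a NOTCH3 change of -2.03 beside a HES1 change of -0.28.

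The other parts of the pathway gave no call at an adjusted p under 0.05 by limma. Over the 6 lists, 47 of 61 genes were measured by 86 probe sets, of which 65 were above the 40th percentile; 4 were called lower, all target genes, and 0 higher, with a median change of 0.06 against 0.07 over all probe sets. Of the ligands, DLL3, JAG1 and JAG2 were measured, and 2 of their 7 probe sets were above the 40th percentile. The smallest adjusted p values of the ligands belonged to JAG1 (0.33 ± 0.19, SE, adjusted p = 0.377), JAG2 (0.17 ± 0.17) and DLL3 (-0.08 ± 0.18). None of the 3 passed, and the highest signal of any of these probe sets was 72.7.

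Of the list that joins enzymes putting sugars on NOTCH receptors with a ubiquitin ligase of ligand endocytosis, NEURL1, 6 of 7 genes were measured by 10 probe sets with 0 calls. The Fringe enzymes, which extend O-linked fucose on the receptor, read 0.30 ± 0.13 (SE, limma adjusted p = 0.220) for LFNG, whose signals did not exceed 36.3, 0.24 ± 0.11 (0.256) for RFNG and 0.15 ± 0.12 (0.522) for MFNG. Of the proteases that cut the receptors, including the subunits of gamma-secretase, 8 of 9 genes were measured by 14 probe sets, again with 0 calls. ADAM10, which makes the first cut, read 0.18 ± 0.08 (adjusted p = 0.254), NCSTN, the nicastrin subunit of gamma-secretase, 0.19 ± 0.09 (0.256), and FURIN, which processes the receptor in the secretory path, 0.23 ± 0.15 (0.411). The RNA of the inhibited protease complex thus showed no call in either direction.

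Of the nuclear partners, 8 of 12 genes were measured by 13 probe sets with 0 calls. KAT2B, an acetyltransferase, had the smallest adjusted p of the list, with a change of 0.48 ± 0.14 (SE, limma adjusted p = 0.0949, higher in 9 of 10 lines). MAML1, a Mastermind coactivator, read 0.21 ± 0.08 (0.168), and EP300, another acetyltransferase, 0.23 ± 0.10 (0.250). Of the genes of receptor turnover, 7 of 11 were measured by 12 probe sets with 0 calls; FBXW7, the ubiquitin ligase subunit that marks the cut receptor for decay, read 0.39 ± 0.17 (0.222), DTX4 0.21 ± 0.15 (0.481) and DTX3 0.13 ± 0.14 (0.659). Within these lists the called falls were those of target genes, NOTCH3 among them. With 1.71% of all probe sets called, 0 calls in lists this short say little. The lists were also chosen with earlier results of these data known, so where the falls lie is a description and not a test.

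**Figure D5:**
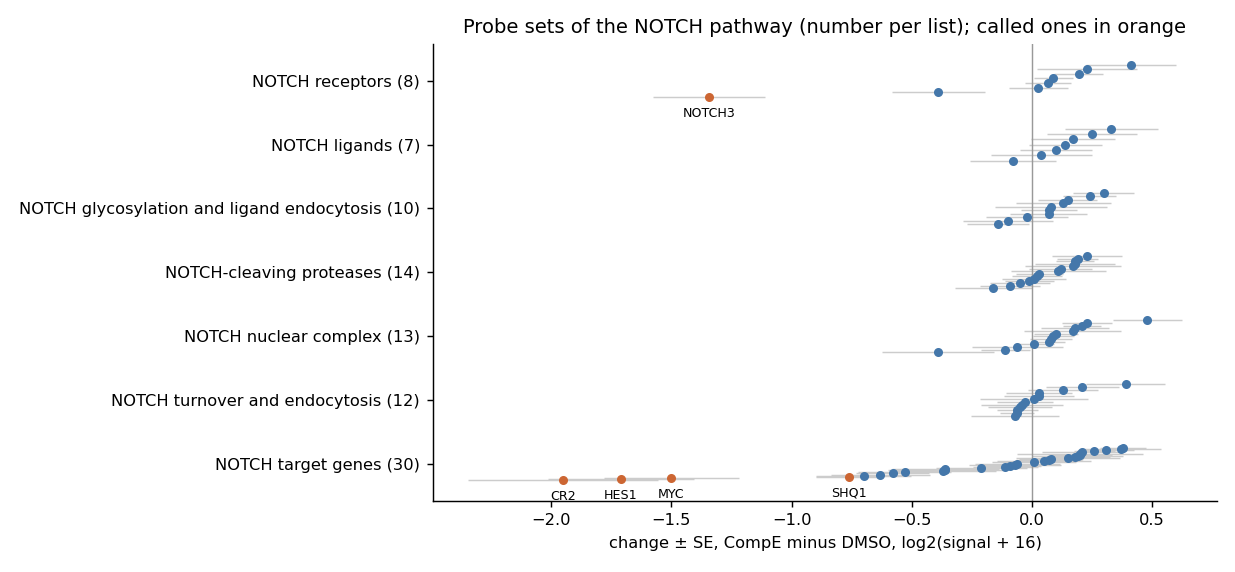
Mean change in log2(signal + 16) over 10 lines, CompE minus DMSO, with the standard error of the limma fit. Each probe set of the receptors and of the 6 pathway lists is shown. Brackets give the number of probe sets, and receptors are left out of the target list. The orange points mark the probe sets called by limma: NOTCH3 at -1.34, CR2 at -1.95, HES1 at -1.71, MYC at -1.50 and SHQ1 at -0.76.

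Other genes were ranked by likeness to the brightest probe set of each receptor above the 40th percentile, among 11679 probe sets, with Pearson's r over 10 lines. With so many candidates over 10 points some high r are to be had by number alone, and the points share arrays. For NOTCH3 the levels most alike after DMSO were those of LIMD2 (r = 0.95), HMGB3P1 (0.93), PFKP (0.93), CENPN (0.93) and LDLRAD4 (0.92), of which none was called under CompE. The changes most like that of NOTCH3 were those of ETS2 (r = 0.91, rho = 0.94), GALK2 (0.88), ZNF117 (0.83), SRSF3 (0.82) and LAT2 (0.81). ETS2, a transcription factor of the ETS family, had a mean change of -0.16 (limma adjusted p = 0.457). It ordered the lines nearly as NOTCH3 did, and its own mean change did not pass.

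For NOTCH1 the levels most alike were those of GSE1 (r = 0.94), DYNC1H1 (0.89), PRR7 (0.88), ATF7IP (0.87) and TTF1 (0.86), and the changes most alike were those of FAM89B (0.96), LYPLA2 (0.95), PBXIP1 (0.93), RIOX2 (0.92) and RNF24 (0.92). Of these 10, GSE1 was called under CompE, with a change of 0.42 (limma adjusted p = 0.00999). For NOTCH2 202443_x_at the levels were those of ITSN2 (0.95), CTSS (0.90), AFF2 (0.89), APLP2 (0.89) and ETFA (0.88), and the changes those of ACP6 (0.93), COQ7 (0.93), NUP205 (0.92), PLXNA3 (0.92) and RBM15 (0.91). None of the 10 genes most like NOTCH2 was called.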

How the data were processed

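RNA of 10 T-ALL lines was hybridised to 20 single-colour arrays. The intensity values deposited by the authors are linear MAS5 signals, per the submitters' processing notes, with a version not given in the sources used here. On every array the mean without the top and bottom 2% of probe sets was 249.9 to 250.1, so the arrays were already scaled to 1 target, and no scaling was added. MAS5 subtracts mismatch signal and is noisy near 0. Precision is limited by the number of arrays.

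Of 22277 probe sets, 62 controls were left out. The platform annotation gave 1 gene for 19070, several for 1043, and did not list 2164. Changes were fitted on log2(signal + 16) with limma 3.58.1 under R 4.3.3. The line was a fixed block, eBayes used a trend with intensity, and p was two-sided with Benjamini-Hochberg adjustment at 0.05 over 22215 probe sets, with no filter; 22215 rather than 1 probe set per gene, so that every receptor probe set is in the same fit. Folds understate dim probe sets. The SE and interval of a single change are those of this fit, in which eBayes draws the variance toward that of other probe sets. For NOTCH3 203238_s_at the plain SE over the 10 lines was 0.298, against 0.233 in the fit. Intervals of differences between 2 probe sets use the plain spread over lines. The pairing comes from the line named in the labels, and for 10 of 10 CompE arrays the best correlated DMSO array was the one of the same line. Single values had an exact permutation test, flipping signs over 10 lines (1024 patterns, smallest p 0.00195), and differences between 2 probe sets were adjusted over 13 pairs. Neighbouring lines in an order of levels count as apart where their 2 arrays do not overlap. Lists describe probe sets by counts and medians. Named genes are the receptors, pathway genes past the threshold, up to 3 per list with the smallest adjusted p, and the 5 most like each bright receptor. The members and lists were chosen with earlier results of these data known. Alternatives changed the pseudocount, filter, scaling, block, covariates, eBayes setting, test and lines. The code was tested on simulated data. No batch is given in the labels.

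Marker lists of other cells gave these values. Of 5 myeloid genes (6 probe sets) and 3 erythroid genes (5 probe sets), 0 probe sets were above the 40th percentile; summed myeloid signals were at most 89.1. Of the erythroid probe sets, 1 of HBB was called higher (0.86), at signals of at most 71.3. Of 10 B-cell, 17 fibroblast and smooth muscle and 6 epithelial probe sets, 3, 4 and 1 were above it and 0 were called. Summed signals after DMSO reached 2670 for B-cell markers, with CD79A at up to 2469. They reached 1257 for fibroblast and smooth muscle markers, with ACTA2 at up to 946.6, and 237.8 for epithelial markers. Of 17 T-lineage probe sets, 3 were called higher, 2 of PTPRC and 1 of GATA3. The remaining probe sets of PTPRC (limma adjusted p = 0.255) and GATA3 (0.0574 and 0.151) did not pass. Over all probe sets 0.828% were called higher.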

Additional observations from a re-analysis of the deposited data

Results flagged for a closer look

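Within the 10 CompE arrays, CUTLL1 lay far above the next line for NOTCH1 218902_at, at a signal of 3134, and for NOTCH3 203238_s_at, at 2516. On the log2 scale of the changes, pseudocount included, the gap to the nearest array was 0.498 and 0.497 of the range of the group. Chance passes this rule in about 1 of 20 groups if values are normally distributed. The chance of a flag over all groups screened was not computed. The same line had the highest DMSO signal of both receptors.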

How the results depend on the processing

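The NOTCH3 203238_s_at change kept its sign in 25 of 25 alternatives and passed in 17; in settings where it did not, the cause was not tested. It stood at -1.34 with no replicate block (adjusted p = 0.858), a random replicate block (0.111), eBayes without trend (0.0604) and the adjusted exact sign-flip test (0.128), at -1.27 with the ACTB ratio and -0.92 with the 10th percentile as a covariate, and at -1.15 without DND41 and MOLT3, chosen after seeing the data (0.114). In these 7 settings 0 receptor probe sets were called. Left out in turn, lines gave -1.52 to -1.23 and 0 to 1 receptor calls.

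Calls among other pathway probe sets, 4 at first, were 7 with 1 probe set per gene above the 40th percentile, 1 with the random block, 1 with the ACTB ratio, 0 with no block, the 10th percentile, no trend, the sign-flip test or without both lines, and 1 to 6 without 1 line. Over all probe sets 380 were called, 597 above the 40th percentile, 99 with the random block, 173 with the ACTB ratio, 109 without the 3 lines of differing medium labels and 53 (without HPB-ALL) to 1098 (without KOPTK1) without 1 line. With no block limma called 0 (1230 at unadjusted p under 0.05), with the 10th percentile 0 (1919), without trend 0 (3958), by sign-flip test 0 (3914) and without both lines 0 (2772). Median centring called 63 higher and 245 lower, against 184 and 196.

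Signs turned for values near 0. NOTCH3 203237_s_at became -0.003 with median centring, -0.029 with quantile normalization and -0.021 with the 10th percentile. NOTCH1 became -0.045 with median centring and -0.12 with the ACTB ratio, and ran from -0.064 to 0.077 without 1 line. NOTCH4 became -0.14 with the 10th percentile and -0.059 without both lines. NOTCH2 minus NOTCH4 became 0.044 with a pseudocount of 64 and 0.057 without the 3 lines, and ran from -0.149 to 0.050 without 1 line. NOTCH3 minus NOTCH4 was -1.66 without the 3 lines (exact, adjusted p = 0.0580) and ran from -1.84 to -1.34 without 1 line.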
